A study of Sus scrofa with 18 samples.

Results

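The genes described here encode the initiation and elongation factors of protein synthesis and the aminoacyl-tRNA synthetases, in kidneys of the pig before and after transplantation. A gene was a member where a probe set of the array carried 1 gene symbol that began with EIF1 to EIF6 or EEF1 or EEF2 (translation factors), or that was a single amino acid letter followed by ARS, ARS1 or ARS2 (synthetases). Where a gene had several such probe sets, the one of highest mean over the 18 arrays stood for it. The rule found 60 of the 6765 genes named on the array, 42 factors and 18 synthetases, from 90 tested probe sets. The symbol rule also takes in proteins at the edge of the theme, such as EEF1AKMT1, a methyltransferase that modifies elongation factor 1, and EEF1E1, a scaffold protein of the complex that holds several cytosolic synthetases.

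Protein synthesis starts when eIF2 brings the initiator tRNA to the small ribosomal subunit and eIF4F, made of the cap-binding protein eIF4E, the scaffold eIF4G and the helicase eIF4A, loads the messenger RNA. Stress kinases phosphorylate the alpha subunit of eIF2 and lower initiation in general while the transcription factor ATF4 is translated, and several synthetase genes of the cytosol are known ATF4 targets. The 4E-binding proteins hold back eIF4E unless mTOR, a kinase that senses nutrients and growth factors, phosphorylates them. Synthetases of the cytosol and of mitochondria are mostly products of separate genes, whose mitochondrial members carry a 2 at the end of the symbol.

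The study asked what ischemia and reperfusion, the loss and return of blood flow in transplantation, and carbon monoxide (CO) do to gene expression in the organ. RNA of 18 kidneys was hybridised, 1 kidney an array. Of these, 2 were naive kidneys, not transplanted, and 16 were transplanted kidneys in 4 groups of 4: untreated or CO-treated, at 4 h (donors 1 to 4) or at 24 h (donors 5 to 8). Each donor number thus has 1 untreated and 1 CO-treated kidney. Naive kidneys had neither operation nor CO, so a difference from them covers all that goes with transplantation. One label field gives air as the treatment of every CO-treated kidney, and its title and source name, which give CO, were followed. Breed, age, sex, the dose of CO and whether donor, graft or recipient received it are not given in the sources used here.

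Values are log2 levels normalised between arrays by the authors, and a change is a difference of log2 group means with its standard error after ±, so that a change of 1 is a doubling. Changes were tested with limma over all 23999 probe sets, and those with a Benjamini-Hochberg adjusted p under 0.05 are said to have risen or fallen. Array medians lay between 3.75 and 3.94. The untreated 4 h kidney of donor 1 stood apart from its group: its mean correlation over probe sets was 0.982 with the naive arrays and 0.956 with the other arrays of its group. Counts and calls of members that turn on it are therefore given with and without it. Kidney marker genes were present, with a mean level of 17 proximal tubule markers of 9.10 and 9.12 in the naive kidneys. In whole tissue, fewer cells of a type and less RNA per cell cannot be told apart.

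Of the 60 members, 41 factors and 17 synthetases were above background (1.61, from tag control probe sets) on all 18 arrays. EIF1AY (a copy of the initiation factor eIF1A) and NARS2 (mitochondrial asparaginyl-tRNA synthetase) were below it on all 18 and their differences compare values at background. In naive kidneys the group means of the members above background ran from 3.89 (VARS2) to 11.03 (EEF1B2), levels that depend on the probes and give no order of abundance.

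By 4 h the cytosolic synthetases NARS and SARS and the helicase EIF4A1 were among the members with the largest changes, and 4 of the 5 mitochondrial synthetases above background had negative changes in both groups, as 53.4% (untreated) and 51.5% (CO) of all probe sets did. In untreated kidneys (n = 4) against naive kidneys (n = 2), EIF4A1 rose by 1.29 ± 0.27 (adjusted p = 0.0355) and NARS by 1.13 ± 0.23 (adjusted p = 0.0317), and no other member passed. That is 1 of 42 factors and 1 of 18 synthetases higher, beside 0.942% of all probe sets higher and 0.563% lower. Of all named genes, each at its brightest probe set, 1.52% were higher and 0.724% lower. In CO-treated kidneys against the same naive kidneys, 8 factors (19%) and 5 synthetases (27.8%) rose, while 6.84% of all probe sets and 9.8% of named genes did. There 2 factors and 1 synthetase fell, 4.76% and 5.56%, beside 6.72% of all probe sets and 10.7% of named genes. The median change of the 60 members was 0.07 in untreated and 0.02 in CO-treated kidneys, against -0.03 and -0.01 over all probe sets.

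The untreated 4 h count turned on donor 1. Without that kidney 9 factors and 5 synthetases rose and 1 synthetase fell, with 7.05% of all probe sets higher and 6.89% lower. Beside EIF4A1 the risen factors were EIF4E (1.30), EEF1E1 (1.18), EIF5B (1.01), EIF2S1 (0.93), EIF2S2 (0.89), EIF4G1 (0.78), EIF3A (0.61) and EIF6 (0.60). Beside NARS the risen synthetases were SARS (1.42), GARS (0.91), AARS (0.78) and MARS (0.68), and IARS2 fell by 0.91. Their adjusted p ran from 0.000293 to 0.0480. Leaving out either naive kidney, or donor 2, 3 or 4, left 0 members called in the untreated comparison. Over all 23999 probe sets 6, 2, 13, 14 and 80 passed in those runs, against 361 with every array. Leaving out either naive kidney left 0 members called in the CO comparison at 4 h, where 79 and 1 of all probe sets passed, against 3254. There the 6 called synthetases became 3 without donor 1. The naive group has only 2 kidneys, and file-name numbers of both recur on the arrays of donor 4, so they may share animals with that pair.

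By 24 h more members had changed, with the tryptophan, valine and methionine synthetases and the eIF3 subunits EIF3B and EIF3I now among the largest. In untreated kidneys 11 factors (26.2%) and 6 synthetases (33.3%) rose against naive kidneys, beside 6.79% of all probe sets, and 3 factors (7.14%) and 0 synthetases fell, beside 7.77%. In CO-treated kidneys 11 factors and 5 synthetases rose and 3 factors fell, beside 5.75% and 5.93% of all probe sets. The median change of the members was 0.22 in both groups, against 0.01 and -0.02 over all probe sets. Named genes as a whole passed more often than all probe sets, with 12.2% higher in untreated and 10.5% in CO-treated kidneys at 24 h. The shares of named genes lower were 10.7% and 8.29%.

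The calls at 24 h depend on how array dates are treated. The dates in the array file names number 4: all naive and 4 h arrays carry the first or the second, and of the 8 arrays of 24 h kidneys only the untreated kidney of donor 5 does. With the date as a block, 0 members passed in any comparison of 24 h kidneys with naive or 4 h kidneys. Over all 23999 probe sets 159 passed there for untreated 24 h kidneys against naive ones. For CO-treated 24 h kidneys against naive ones, and between the times in either treatment, 0 did. Against naive kidneys 20 of 20 (untreated) and 19 of 19 (CO) called members kept their sign. Their change was a median of 0.92 and 0.88 times that without the block. Within the second date, the single untreated 24 h kidney and the single naive kidney differed in the called direction for 20 of 20 members, EIF4A1 by 1.71 and WARS by 1.82. These sign counts come from arrays that gave the calls, so they were nearly fixed beforehand and decide nothing about the date. Without naive kidney 1 or 2, 5 and 8 members passed in the untreated comparison and 4 and 6 in the CO comparison. Over all 23999 probe sets 903 and 1214 passed in those untreated runs, against 3494 with every array. With CO 459 and 743 passed, against 2804. The 14 called factors became 9 without untreated donor 5 or 6, and 9 or 8 without CO donor 6 or 7.

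**Figure D1:**
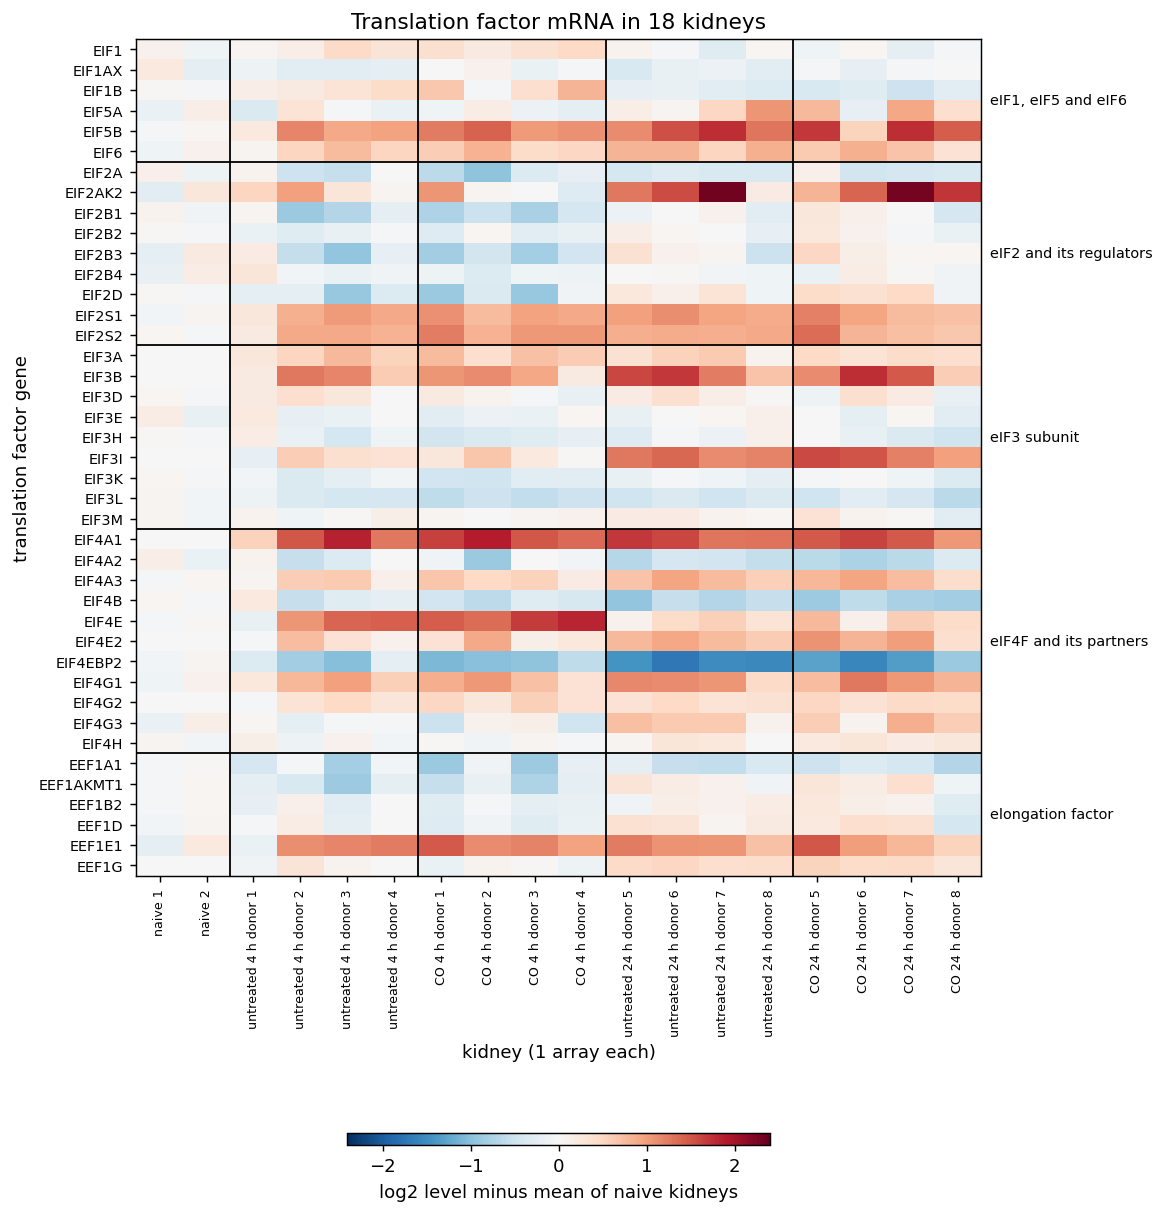
Log2 level of the 41 translation factors above background in each of the 18 kidneys, minus the mean of the 2 naive kidneys (red higher, blue lower), with genes grouped by role and kidneys by group and donor. EIF4A1 is high in all transplanted kidneys, EIF4E in the 4 h kidneys other than untreated donor 1, and EIF4EBP2 is lowest at 24 h.

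Among the 11 members of eIF4F and its partners, the helicase EIF4A1 rose in all 4 groups of transplanted kidneys. EIF4A1, the main helicase of eIF4F, had levels of 7.56 and 7.53 in the naive kidneys and of 8.10, 9.04, 9.40 and 8.82 in the untreated 4 h kidneys of donors 1 to 4. It had 9.18, 9.43, 9.04 and 8.90 in the CO 4 h kidneys, 9.24, 9.16, 8.83 and 8.84 in the untreated 24 h kidneys of donors 5 to 8, and 9.02, 9.17, 9.03 and 8.59 in the CO 24 h kidneys. All 16 transplanted kidneys lay above both naive ones, with untreated donor 1 the lowest. The rise was 1.59 ± 0.27 with CO at 4 h (adjusted p = 0.00473, 3.02-fold), 1.47 ± 0.27 untreated at 24 h (adjusted p = 0.00228) and 1.41 ± 0.27 with CO at 24 h (adjusted p = 0.00415). Its relative EIF4A2 differed from naive kidneys by -0.53 ± 0.24 untreated (adjusted p = 0.152) and -0.59 ± 0.24 with CO at 24 h (adjusted p = 0.119). EIF4A3, a helicase of the exon junction complex rather than of eIF4F, rose at 24 h by 0.74 ± 0.19 untreated (adjusted p = 0.0176) and 0.73 ± 0.19 with CO (adjusted p = 0.0231).

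EIF4E, the cap-binding protein itself, had its highest levels at 4 h. They were 4.74 and 4.80 in naive kidneys, 4.59, 5.83, 6.17 and 6.21 in untreated and 6.23, 6.10, 6.45 and 6.60 in CO-treated 4 h kidneys. At 24 h they were 4.88, 5.22, 5.34 and 5.09 untreated and 5.54, 4.88, 5.35 and 5.20 with CO. Apart from untreated donor 1, which lay below both naive kidneys, every 4 h kidney was above every naive and 24 h kidney. The rise with CO at 4 h was 1.58 ± 0.33 (adjusted p = 0.00950). Untreated 4 h kidneys differed from naive ones by 0.93 ± 0.33 (adjusted p = 0.128), and by 1.30 ± 0.21 without donor 1 (adjusted p = 0.000826). From 4 h to 24 h it fell by 1.10 ± 0.27 in CO-treated kidneys (adjusted p = 0.0114). In untreated kidneys that difference was -0.57 ± 0.27 (adjusted p = 0.224), and -0.94 ± 0.17 without donor 1 (adjusted p = 0.00292).

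EIF4EBP2, a 4E-binding protein that sequesters eIF4E, had the largest fall of all members. Naive kidneys had 9.05 and 9.17, untreated 4 h kidneys 8.78, 8.27, 8.09 and 8.89, and CO 4 h kidneys 8.04, 8.11, 8.16 and 8.50. Untreated 24 h kidneys had 7.67, 7.40, 7.61 and 7.57, and CO 24 h kidneys 7.83, 7.54, 7.77 and 8.23. Every transplanted kidney was below both naive ones, and every untreated 24 h kidney was below every untreated 4 h kidney. The change was -0.60 ± 0.22 untreated at 4 h (adjusted p = 0.136), and it fell by 0.91 ± 0.22 with CO at 4 h (adjusted p = 0.0160). At 24 h it fell by 1.55 ± 0.22 untreated, to a level 2.93-fold lower (adjusted p = 0.000492), and by 1.27 ± 0.22 with CO (adjusted p = 0.00263). From 4 h to 24 h it fell by 0.95 ± 0.18 in untreated kidneys (adjusted p = 0.00381), and differed by -0.36 ± 0.18 in CO-treated kidneys (adjusted p = 0.195). The difference between those 2 changes was 0.59 ± 0.26 (adjusted p = 0.996, interaction term). The gene has 5 probe sets, and their mean changed less: it fell by 0.85 untreated at 24 h (adjusted p = 0.0186), and differed by -0.71 with CO at 24 h (adjusted p = 0.0508), -0.58 with CO at 4 h (adjusted p = 0.0982) and -0.53 between the times untreated (adjusted p = 0.0817). EIF4EBP1 and EIF4EBP3 were not analysed here.

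The scaffold EIF4G1 rose at 24 h, by 0.95 ± 0.24 untreated (adjusted p = 0.0152) and 0.97 ± 0.24 with CO (adjusted p = 0.0172). The mean of its probe sets differed by 0.62 and 0.49 (adjusted p = 0.113 and 0.232). EIF4G2, which lacks the site that binds eIF4E, differed by 0.38 ± 0.14 and 0.43 ± 0.14 (adjusted p = 0.0811 and 0.0558). EIF4G3, the third scaffold, rose from 4 h to 24 h in CO-treated kidneys by 0.72 ± 0.20 (adjusted p = 0.0180), with the groups overlapping. EIF4B, which stimulates the helicase, fell at 24 h by 0.69 ± 0.19 untreated (adjusted p = 0.0196) and by 0.77 ± 0.19 with CO (adjusted p = 0.0137). EIF4E2, a relative of eIF4E that represses bound messages, rose by 0.77 ± 0.24 and 0.83 ± 0.24 (adjusted p = 0.0390 and 0.0327). EIF4H, a cofactor like EIF4B, differed from naive kidneys by -0.00 to 0.25 across the 4 groups, none past the threshold.

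Of the 9 genes of eIF2 and its regulators, the alpha and beta subunits rose. EIF2S1, the alpha subunit that stress kinases phosphorylate, had 7.28 and 7.42 in naive kidneys and 7.62, 8.20, 8.38 and 8.26 in untreated 4 h kidneys. With CO at 4 h it had 8.44, 8.10, 8.31 and 8.26, and at 24 h it had 8.34, 8.46, 8.30 and 8.24 untreated and 8.56, 8.29, 8.11 and 8.05 with CO. All transplanted kidneys were above both naive ones. The rise was 0.93 ± 0.19 with CO at 4 h (adjusted p = 0.00852), 0.98 ± 0.19 untreated at 24 h (adjusted p = 0.00329) and 0.90 ± 0.19 with CO at 24 h (adjusted p = 0.00731). Untreated 4 h kidneys differed by 0.77 ± 0.19 (adjusted p = 0.0533), and rose by 0.93 without donor 1 (adjusted p = 0.00145). EIF2S2, the beta subunit, rose by 1.03 ± 0.21 with CO at 4 h, 0.88 ± 0.21 untreated at 24 h and 0.88 ± 0.21 with CO at 24 h (adjusted p = 0.00775, 0.00948 and 0.0120). Without donor 1 it rose by 0.89 untreated at 4 h (adjusted p = 0.00402).

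The other 7 members of this class did not pass against naive kidneys. The measured subunits of eIF2B, which recharges eIF2 with GTP, were EIF2B1 to EIF2B4. Between the times in untreated kidneys 0 of the 9 members of the class passed. From 4 h to 24 h in CO-treated kidneys, EIF2B3 rose by 0.82 ± 0.23 (adjusted p = 0.0215) and EIF2B1 by 0.61 ± 0.19 (adjusted p = 0.0373). EIF2B3 had 4.83, 5.22, 4.84 and 5.21 in the CO 4 h kidneys and 6.16, 5.80, 5.71 and 5.71 in the CO 24 h kidneys, with 5.43 and 5.88 in naive kidneys. The 24 h kidneys thus all lay above the 4 h kidneys and around the naive ones. EIF2D, which delivers initiator tRNA without eIF2, rose in the same comparison by 0.86 ± 0.20 (adjusted p = 0.00867).

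EIF2AK2 encodes PKR, the eIF2 kinase that double-stranded RNA activates and interferon induces, and was the only eIF2 kinase measured as a member. Its levels were 6.11 and 6.67 in naive kidneys, 6.91, 7.36, 6.69 and 6.45 in untreated and 7.45, 6.45, 6.40 and 6.08 in CO-treated 4 h kidneys. At 24 h they were 7.66, 7.96, 8.70 and 6.58 untreated and 7.20, 7.78, 8.68 and 8.10 with CO. Values spread widely within groups, and the 4 h and 24 h groups overlapped. In CO-treated kidneys it rose from 4 h to 24 h by 1.34 ± 0.40 (adjusted p = 0.0299). Against naive kidneys the 24 h difference was 1.34 ± 0.49 untreated (adjusted p = 0.0811) and 1.55 ± 0.49 with CO (adjusted p = 0.0513).

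The 9 measured subunits of eIF3, the large scaffold that joins the small ribosomal subunit to eIF4F, did not move together. EIF3I had 7.49 and 7.46 in naive kidneys, 7.27, 8.06, 7.86 and 7.83 in untreated and 7.75, 8.14, 7.70 and 7.51 in CO-treated 4 h kidneys. At 24 h it had 8.75, 8.86, 8.61 and 8.66 untreated and 9.06, 8.99, 8.68 and 8.47 with CO. The 24 h kidneys all lay above every other kidney, so EIF3I was a late riser. Its rise was 1.24 ± 0.22 untreated (adjusted p = 0.00169) and 1.32 ± 0.22 with CO (adjusted p = 0.00188) at 24 h. From 4 h to 24 h it rose by 0.96 ± 0.18 untreated (adjusted p = 0.00289) and 1.02 ± 0.18 with CO (adjusted p = 0.00139).

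EIF3B, a core scaffold subunit, rose at 24 h by 1.30 ± 0.36 untreated (adjusted p = 0.0240) and 1.25 ± 0.36 with CO (adjusted p = 0.0353). EIF3A, the largest subunit, rose with CO at 4 h by 0.62 ± 0.17 (adjusted p = 0.0255), and differed by 0.41 ± 0.17 in both 24 h groups (adjusted p = 0.116 and 0.127). EIF3L fell, by 0.55 ± 0.13 with CO at 4 h (adjusted p = 0.0160), 0.41 ± 0.13 untreated at 24 h (adjusted p = 0.0475) and 0.45 ± 0.13 with CO at 24 h (adjusted p = 0.0379). These calls held in 11, 3 and 5 of 14 alternative runs. EIF3D, EIF3E, EIF3H, EIF3K and EIF3M did not pass in any comparison, and their changes against naive kidneys lay between -0.35 and 0.22.

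Of the 7 genes for eIF1, eIF5 and eIF6, 2 rose against naive kidneys. EIF5B, the GTPase that joins the ribosomal subunits, rose by 1.20 ± 0.30 with CO at 4 h (adjusted p = 0.0189), 1.43 ± 0.30 untreated at 24 h (adjusted p = 0.00540) and 1.36 ± 0.30 with CO at 24 h (adjusted p = 0.00908). Naive kidneys had 5.30 and 5.39, and the 16 transplanted kidneys 5.58 (untreated 4 h, donor 1) to 7.12 (CO 24 h, donor 7). The mean of the EIF5B probe sets changed less. It rose at 24 h by 0.56 untreated (adjusted p = 0.0438) and 0.74 with CO (adjusted p = 0.0138), and differed by 0.46 with CO at 4 h (adjusted p = 0.0986). EIF6, which keeps the large ribosomal subunit apart and takes part in its assembly, rose by 0.59 ± 0.19, 0.75 ± 0.19 and 0.63 ± 0.19 with CO at 4 h, untreated at 24 h and with CO at 24 h (adjusted p = 0.0488, 0.0145 and 0.0399). The EIF6 calls held in 5, 11 and 7 of 14 alternative runs.

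EIF1 and its copy EIF1B, factors of start codon choice, had lower group means at 24 h than at 4 h. EIF1B had 8.37 and 8.30 in naive kidneys, 8.50, 8.55, 8.66 and 8.77 in untreated and 8.98, 8.29, 8.75 and 9.15 in CO-treated 4 h kidneys, and 7.84 to 8.15 in all 24 h kidneys. Each 24 h kidney lay below all naive and 4 h kidneys. It fell from 4 h to 24 h by 0.53 ± 0.15 untreated (adjusted p = 0.0333) and by 0.81 ± 0.15 with CO (adjusted p = 0.00206), and EIF1 fell by 0.44 ± 0.12 with CO (adjusted p = 0.0193). With the array date as a block these became -0.25, -0.53 and -0.18, not past the threshold. Untreated, EIF1 differed between the times by -0.30 ± 0.12 (adjusted p = 0.140), with the groups overlapping. EIF1AX, which scans with EIF1, and EIF5A, the factor that carries hypusine and eases stalled elongation, did not pass in any comparison. EIF5 and EIF5A2 were not analysed here.

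Of the 6 elongation members, 1 rose in each group against naive kidneys except untreated at 4 h, where 0 did. That is 16.7% with CO at 4 h, untreated at 24 h and with CO at 24 h. Of all named genes 9.8%, 12.2% and 10.5% were higher there. Without untreated donor 1, EEF1E1 rose untreated at 4 h by 1.18 (adjusted p = 0.00472). EEF1A1, the abundant carrier of charged tRNA, differed from naive kidneys by -0.51 to -0.33 across groups, none past the threshold (lowest adjusted p = 0.192). A brighter control probe set of the same gene, left out with all control probe sets, had a mean of 12.3 (12.2 to 12.7 over the 18 arrays) and changes of -0.05 to 0.06. Of the nucleotide exchange subunits, EEF1G rose at 24 h by 0.45 ± 0.13 untreated (adjusted p = 0.0310) and 0.43 ± 0.13 with CO (adjusted p = 0.0415), while EEF1B2 and EEF1D did not pass. EEF1AKMT1 rose from 4 h to 24 h by 0.55 ± 0.17 untreated (adjusted p = 0.04997) and 0.62 ± 0.17 with CO (adjusted p = 0.0193), from levels that were 0.42 and 0.43 below naive kidneys at 4 h. EEF1E1, the scaffold protein of the synthetase complex, rose by 1.19 ± 0.33 with CO at 4 h (adjusted p = 0.0288) and differed by 1.02 ± 0.33 untreated (adjusted p = 0.0501) and 0.96 ± 0.33 with CO (adjusted p = 0.0750) at 24 h. EEF1A2, EEF2 and EEF2K were not analysed here.

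**Figure D2:**
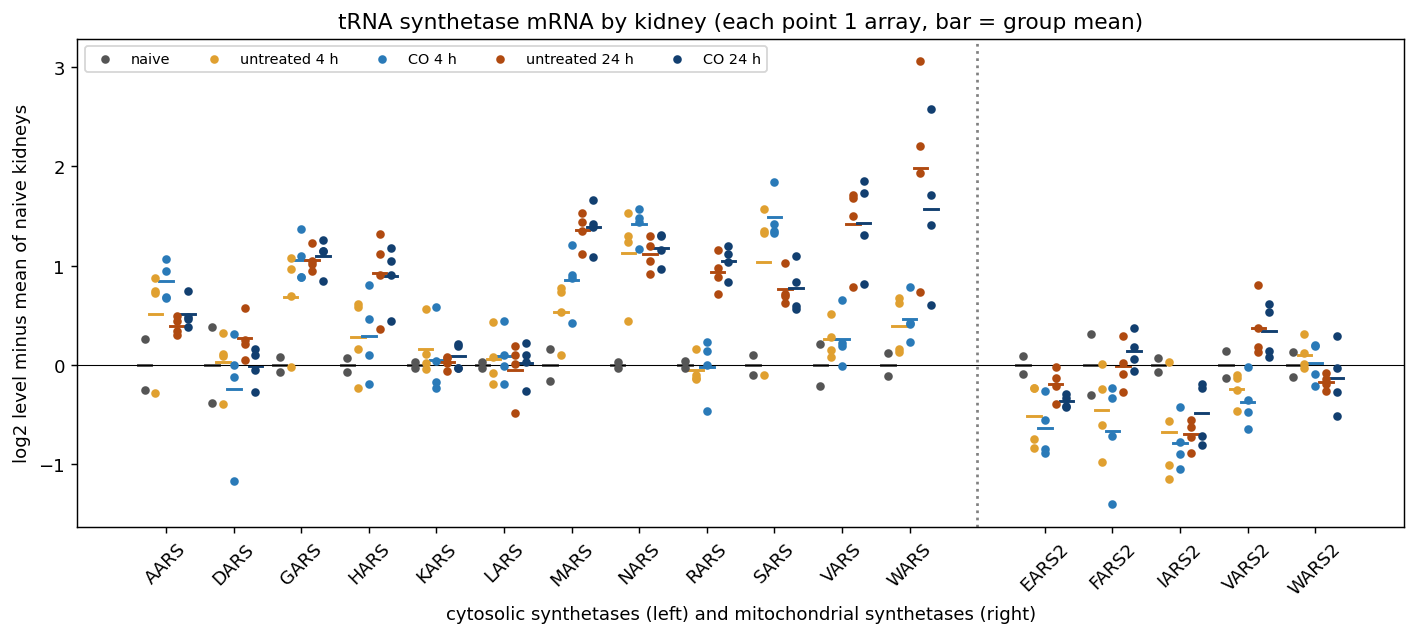
Log2 level of the 17 synthetases above background minus the mean of the naive kidneys, with each point 1 kidney and each bar a group mean, for 12 cytosolic (left) and 5 mitochondrial genes (right). SARS and AARS are highest at 4 h, RARS, VARS and WARS at 24 h, and IARS2 lies below the naive mean in all transplanted kidneys but 1.

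The cytosolic synthetases, which charge tRNA for the bulk of protein synthesis, were mostly higher in transplanted kidneys. Of 12, 11 had a positive change in untreated and 10 in CO-treated kidneys at 4 h, and 11 in each group at 24 h. The median change of the 12 was 0.34 untreated and 0.38 with CO at 4 h, and 0.93 and 0.97 at 24 h. Of all probe sets 53.4%, 51.5%, 49.2% and 52% had a negative change in those 4 groups. Of the 12, 1, 5, 6 and 5 passed in those 4 groups, all higher. Beside them 0.942%, 6.84%, 6.79% and 5.75% of all probe sets were higher, and 1.52%, 9.8%, 12.2% and 10.5% of all named genes. The 5 mitochondrial synthetases above background had medians of -0.46, -0.64, -0.17 and -0.13 in the same groups. By kidney, the mean of the cytosolic genes above naive ran from 0.06 (donor 1) to 0.66 in untreated and from 0.32 to 0.66 in CO-treated 4 h kidneys, and from 0.54 to 1.06 over all 24 h kidneys.

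SARS and AARS had their highest group means at 4 h. SARS, which charges serine, had 6.75 and 6.96 in naive kidneys, 6.76, 8.18, 8.43 and 8.20 in untreated and 8.70, 8.21, 8.27 and 8.18 in CO-treated 4 h kidneys. At 24 h it had 7.48, 7.88, 7.55 and 7.56 untreated and 7.69, 7.95, 7.45 and 7.42 with CO. Apart from untreated donor 1, the 4 h kidneys lay above all 24 h kidneys and those above the naive ones. It rose with CO at 4 h by 1.49 ± 0.34 (adjusted p = 0.0121), and untreated 4 h kidneys differed by 1.04 ± 0.34 (adjusted p = 0.0984), or by 1.42 ± 0.20 without donor 1 (adjusted p = 0.000293). At 24 h it differed by 0.76 ± 0.34 untreated and 0.77 ± 0.34 with CO (adjusted p = 0.145 and 0.153). Between the times it differed by -0.27 ± 0.27 untreated (adjusted p = 0.622) and -0.71 ± 0.27 with CO (adjusted p = 0.0833). AARS, which charges alanine, rose with CO at 4 h by 0.84 ± 0.25 (adjusted p = 0.0390) and differed by 0.39 ± 0.25 and 0.51 ± 0.25 at 24 h (adjusted p = 0.349 and 0.217), with differences between the times of -0.12 ± 0.21 untreated and -0.33 ± 0.21 with CO (adjusted p = 0.799 and 0.312).

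NARS and GARS, for asparagine and glycine, were high at both times. NARS had 7.32 and 7.26 in naive kidneys, 7.74, 8.53, 8.82 and 8.59 in untreated and 8.86, 8.73, 8.77 and 8.46 in CO-treated 4 h kidneys, and 8.20 to 8.60 at 24 h. All transplanted kidneys were above both naive ones. NARS rose by 1.42 ± 0.23 with CO at 4 h (adjusted p = 0.00416), 1.11 ± 0.23 untreated (adjusted p = 0.00443) and 1.18 ± 0.23 with CO at 24 h (adjusted p = 0.00430). GARS rose by 1.06 ± 0.24, 1.06 ± 0.24 and 1.10 ± 0.24 in those groups (adjusted p = 0.0124, 0.00792 and 0.00826).

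RARS and VARS rose between the times in both treatments, and MARS in untreated kidneys. RARS, for arginine, had 7.37 and 7.44 in naive kidneys, 7.27 to 7.57 in untreated and 6.94 to 7.64 in CO-treated 4 h kidneys. At 24 h it had 8.29, 8.56, 8.39 and 8.12 untreated and 8.61, 8.53, 8.44 and 8.24 with CO. The 24 h kidneys did not overlap the others, and the 4 h kidneys lay around the naive ones. Between the times RARS rose by 0.99 ± 0.15 untreated (adjusted p = 0.000929) and 1.07 ± 0.15 with CO (adjusted p = 0.000418). VARS, for valine, rose between the times by 1.16 ± 0.24 untreated (adjusted p = 0.00572) and 1.17 ± 0.24 with CO (adjusted p = 0.00380), and against naive kidneys by 1.42 ± 0.29 and 1.43 ± 0.29 at 24 h (adjusted p = 0.00458 and 0.00585). MARS, for methionine, rose by 0.85 ± 0.23 with CO at 4 h (adjusted p = 0.0230), and by 1.36 ± 0.23 untreated and 1.39 ± 0.23 with CO at 24 h (adjusted p = 0.00120 and 0.00176). Between the times it rose by 0.83 ± 0.18 untreated (adjusted p = 0.00965) and differed by 0.53 ± 0.18 with CO (adjusted p = 0.0551), where the groups overlapped.

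WARS, the tryptophanyl-tRNA synthetase and a known target of interferon gamma, had the largest rise of any member. Its levels were 5.36 and 5.59 in naive kidneys, 5.60, 6.15, 6.10 and 5.63 in untreated and 5.89, 6.25, 5.89 and 5.71 in CO-treated 4 h kidneys. At 24 h they were 7.41, 7.68, 8.54 and 6.21 untreated and 6.88, 8.05, 7.19 and 6.08 with CO. Both kidneys of donor 8 were the lowest of their groups at 24 h and lay within the range of the 8 kidneys at 4 h. Untreated kidneys rose by 1.98 ± 0.50 at 24 h (adjusted p = 0.0140, 3.96-fold), and CO-treated kidneys differed by 1.57 ± 0.50 (adjusted p = 0.0505), or by 1.90 without donor 8 (adjusted p = 0.0173) and 0.996 with the array date as a block. From 4 h to 24 h it rose by 1.59 ± 0.41 untreated (adjusted p = 0.0207) and differed by 1.11 ± 0.41 with CO (adjusted p = 0.0696).

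The other cytosolic synthetases did not pass. KARS, LARS and DARS, for lysine, leucine and aspartate, did not pass in any comparison, and their changes against naive kidneys lay between -0.25 and 0.27. HARS, for histidine, differed at 24 h by 0.93 ± 0.31 untreated (adjusted p = 0.0534) and 0.89 ± 0.31 with CO (adjusted p = 0.0715).

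Among the mitochondrial synthetases, EARS2, for glutamate, fell with CO at 4 h by 0.64 ± 0.20 (adjusted p = 0.0457), a call that held in 5 of 14 alternative runs. IARS2, for isoleucine, had 7.06 and 6.93 in naive kidneys, 7.02, 5.85, 5.98 and 6.43 in untreated and 5.94, 6.10, 6.21 and 6.57 in CO-treated 4 h kidneys, and 6.11 to 6.80 at 24 h. Only untreated donor 1 reached the naive kidneys. Its difference was -0.68 ± 0.27 untreated and -0.79 ± 0.27 with CO at 4 h (adjusted p = 0.172 and 0.0656), and it fell by 0.91 ± 0.23 in untreated 4 h kidneys when donor 1 was left out (adjusted p = 0.0159). VARS2, for valine, rose from 4 h to 24 h by 0.61 ± 0.18 untreated (adjusted p = 0.0400) and 0.72 ± 0.18 with CO (adjusted p = 0.0113), calls that held in 5 and 15 of 16 alternative runs. FARS2, for phenylalanine, rose between the times by 0.81 ± 0.25 with CO (adjusted p = 0.0357), a call that held in 8 of 16. With the array date as a block the FARS2 difference was 1.24, not past the threshold. WARS2 did not pass in any comparison.

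**Figure D3:**
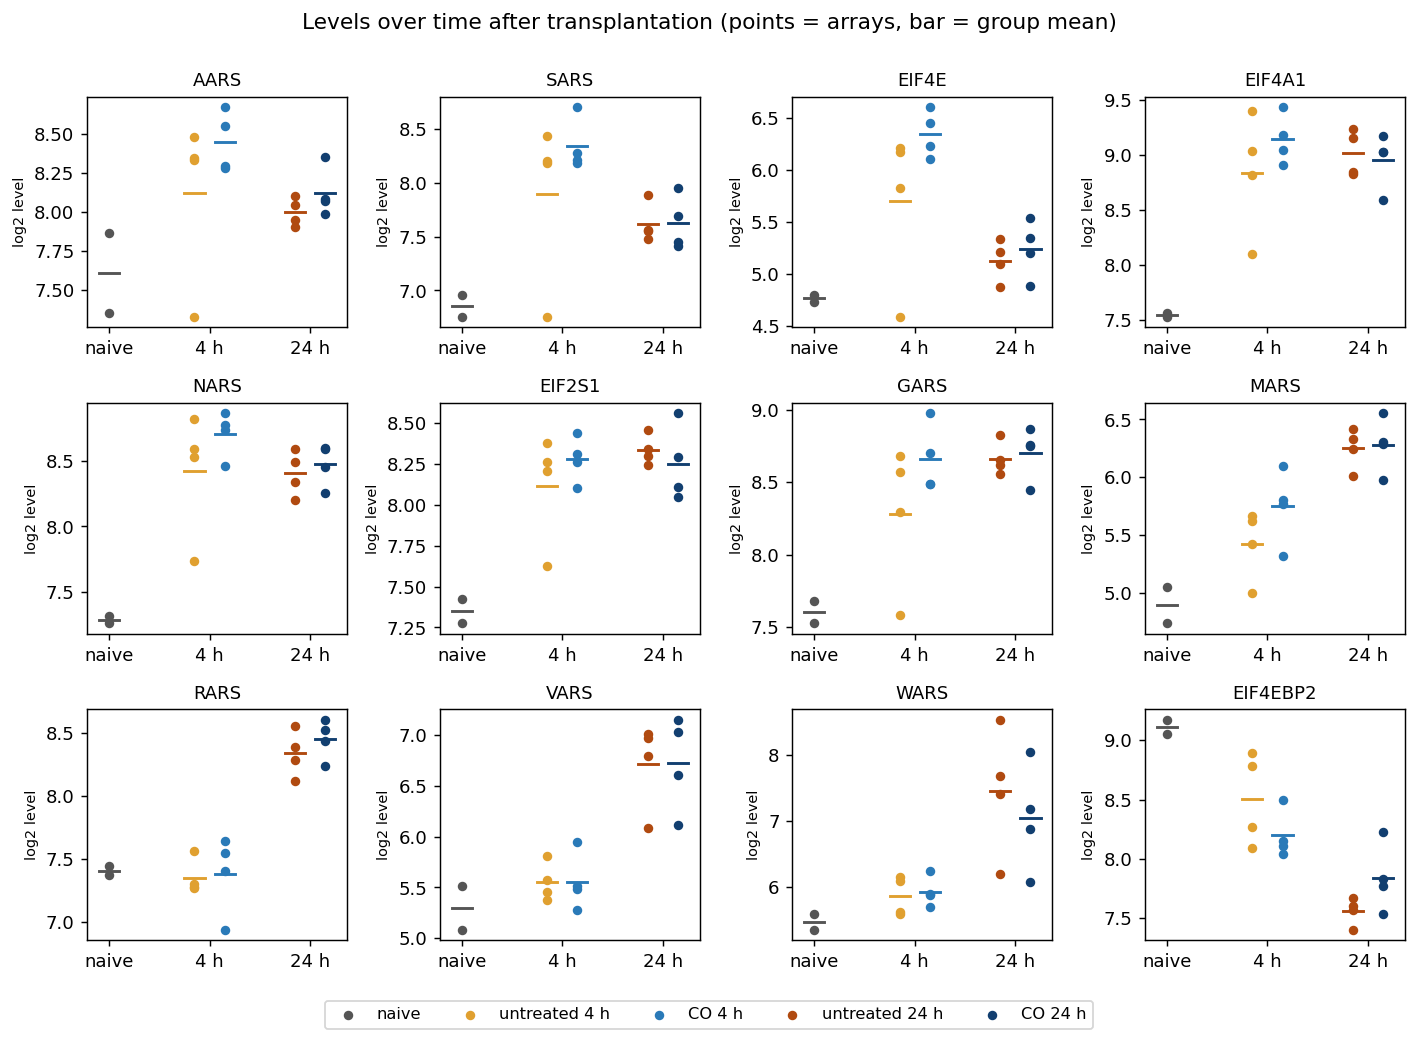
Log2 level of 12 members in naive kidneys and at 4 h and 24 h after transplantation, with each point 1 kidney and each bar a group mean. SARS and EIF4E peak at 4 h, RARS and VARS are highest at 24 h, NARS and EIF2S1 are high at both times, and EIF4EBP2 falls.

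In all, between 4 h and 24 h 3 factors and 5 synthetases rose and 2 factors fell in untreated kidneys, beside 5.15% of all probe sets higher and 4.57% lower. In CO-treated kidneys 8 factors and 4 synthetases rose and 3 factors fell, beside 10.2% higher and 7.44% lower. The factors' share higher was 7.14% untreated and 19% with CO, and the synthetases' 27.8% and 22.2%. Of all named genes, each at its brightest probe set, 9.61% untreated and 17.9% with CO were higher. The factors' shares were thus below that of named genes untreated and near it with CO. These comparisons set 4 donors against 4 other donors, and leaving out 1 kidney brought the untreated factors from 5 to 2 called (4 h donor 3 or 4, or 24 h donor 5, 6 or 7), the untreated synthetases from 5 to 3 (4 h donor 4 or 24 h donor 7), and the CO factors from 11 to 7 (4 h donor 1 or 3) or 6 (24 h donor 7). Without untreated donor 1, SARS fell between the times in untreated kidneys by 0.65 ± 0.17 (adjusted p = 0.0178), and EEF1G and VARS2 no longer passed.

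CO-treated and untreated kidneys differed past the threshold in no member. Of 60 members, 0 passed at 4 h and 0 at 24 h, beside 0% of all probe sets at each time. At an unadjusted p under 0.05, 1 member stood out at 4 h, EIF4E, higher by 0.65 ± 0.27 (adjusted p = 0.999), and 1 at 24 h, EIF1AY, which is below background. Over all probe sets 787 and 281 had an unadjusted p under 0.05. EIF4E was higher with CO in all 4 pairs at 4 h, by 1.64, 0.27, 0.28 and 0.39 in donors 1 to 4. Its mean difference came largely from donor 1, whose untreated kidney stood near the naive ones, and was 0.28 ± 0.17 without it (adjusted p = 0.9998). SARS was higher with CO by 1.95 in donor 1, while its mean difference without that kidney was 0.07 ± 0.17.

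The precision of that comparison is given by its intervals, from the fit that did not use the donor pairs. For 55 of the 58 members above background at 4 h, and 56 of 58 at 24 h, the 95% confidence interval of the difference lay within ±1, with a median half-width of 0.38 at each time. EIF2AK2 and WARS had the widest, for WARS -1.27 to 0.45 at 24 h. By donor, the number of members higher with CO was 32, 33, 28 and 20 of 60 for donors 1 to 4 and 38, 30, 32 and 25 for donors 5 to 8. The difference had 1 sign in all 4 pairs for 8 members at 4 h (3 higher, 5 lower) and 5 at 24 h (3 higher, 2 lower). The CO effect did not differ between the times in any member past the threshold, with 0 of 60 called beside 0% of all probe sets, and an unadjusted p under 0.05 for EIF4EBP2 alone.

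**Figure D4:**
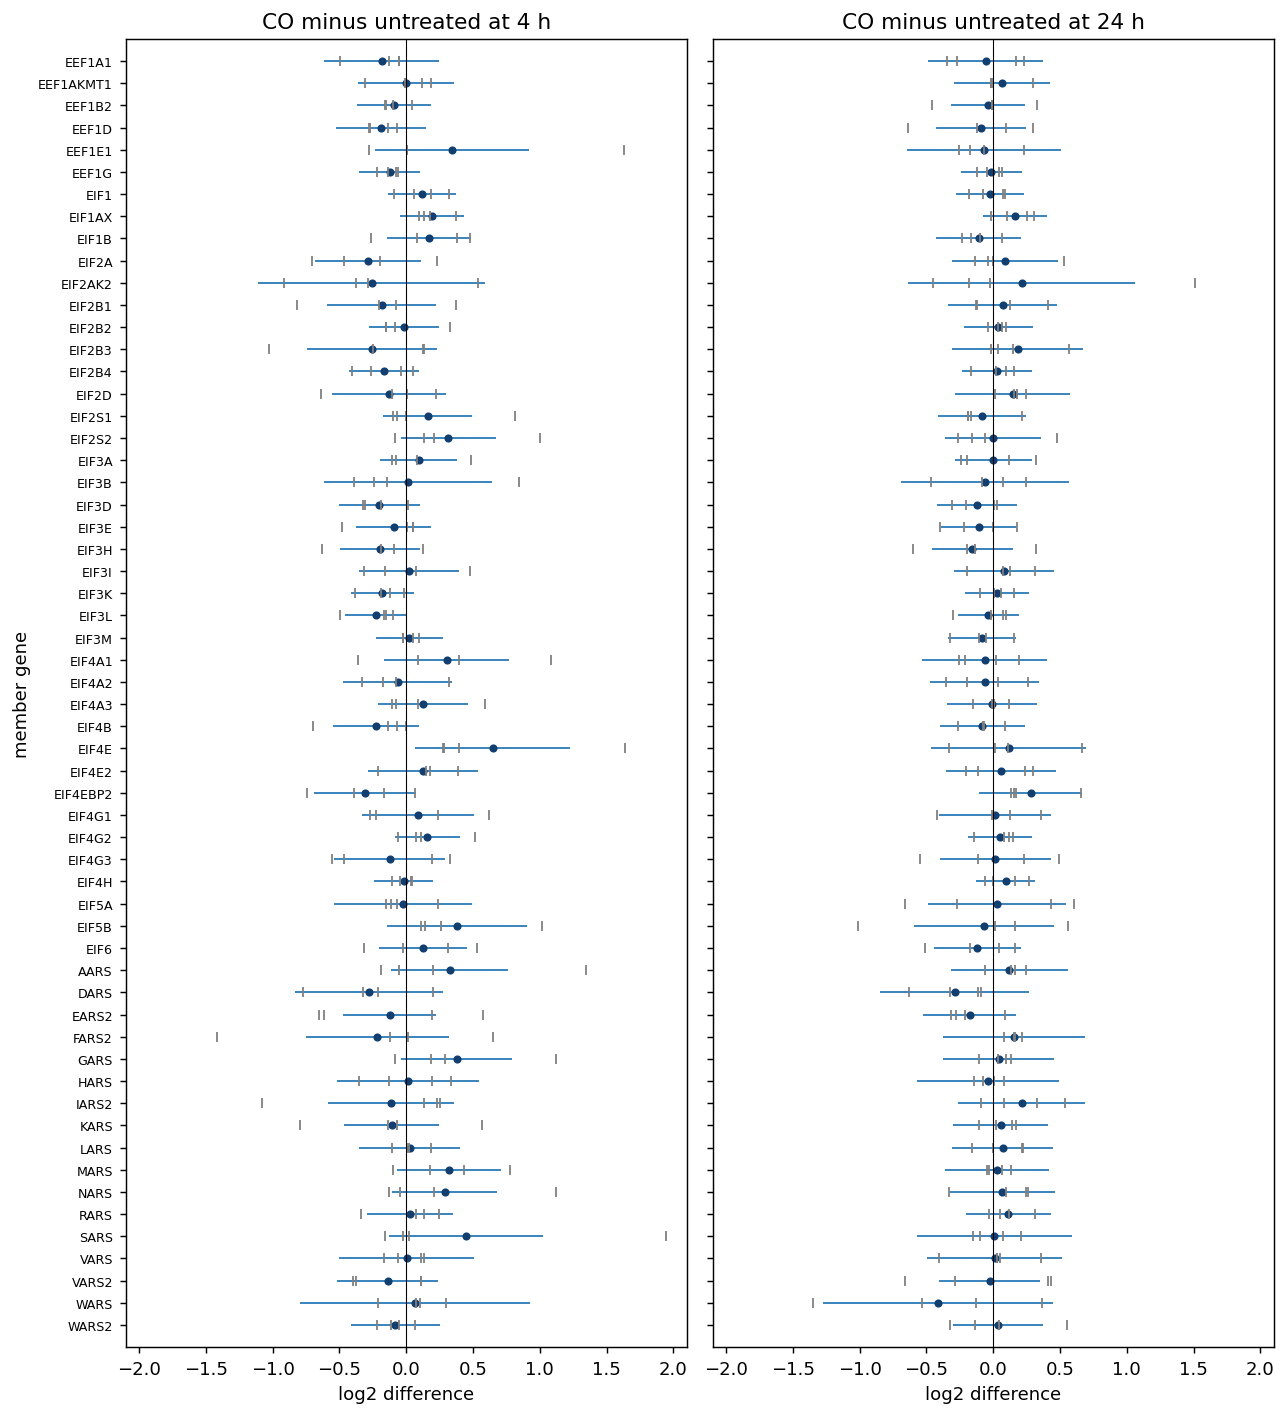
CO-treated minus untreated log2 level at 4 h (left) and 24 h (right) for the 58 members above background, with the fitted difference as a point, its 95% confidence interval as a line and each donor's pair as a tick. Intervals, from the fit that did not use the donor pairs, cross 0 for all members except EIF4E at 4 h, whose donor 1 lies at 1.64.

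For 22 members the array had further tested probe sets. Of those of called members, 9 of 10 had the same sign with CO at 4 h, 12 of 13 in untreated and 10 of 11 in CO-treated kidneys at 24 h, while 4, 4 and 1 of them were also called. The 2 further probe sets of WARS changed by 1.69 ± 0.39 and 2.26 ± 0.49 in untreated 24 h kidneys (adjusted p = 0.00853 and 0.00621). The second probe set of SARS rose by 1.42 ± 0.34 with CO at 4 h (adjusted p = 0.0145), and that of EEF1E1 rose at 24 h by 1.07 ± 0.29 untreated (adjusted p = 0.0209). Dimmer probe sets of other members did not follow: that of AARS differed by 0.17 ± 0.23 with CO at 4 h, those of EIF5B by 0.08 ± 0.24 and 0.18 ± 0.19, and those of EIF4E2 by -0.01 ± 0.17 and 0.31 ± 0.20, untreated at 24 h. A dimmer probe set of EIF3M fell by 1.06 ± 0.34 there (adjusted p = 0.0438), while the brightest differed by 0.13 ± 0.15. That of EIF5A rose by 0.86 ± 0.21 (adjusted p = 0.0131), while the brightest differed by 0.45 ± 0.30. With the mean of a gene's probe sets as its value, AARS and EIF5B were no longer called with CO at 4 h, EIF4E2 in either 24 h group, GARS with CO at 24 h, EEF1AKMT1 between the times in either treatment, and EIF2B1 between the times with CO. The rise of EIF5B became 0.56 untreated and 0.74 with CO at 24 h.

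Related genes outside the symbol rule were read from lists, whose counts stand beside 0.942% of all probe sets higher untreated and 6.84% with CO at 4 h, and 6.79% and 5.75% at 24 h. The shares lower were 0.563% and 6.72% at 4 h, and 7.77% and 5.93% at 24 h. Of 8 measured genes of the synthetase complex and other synthetases, 4 rose in each 24 h group and 0 in either 4 h group. These were the phenylalanine synthetase subunits FARSA (1.13 ± 0.33 untreated, adjusted p = 0.0296) and FARSB (0.54 ± 0.14, adjusted p = 0.0157), the double synthetase EPRS (0.50 ± 0.16, adjusted p = 0.0408) and the scaffold AIMP2 (1.24 ± 0.33, adjusted p = 0.0203). DTD1, which removes wrongly attached D-amino acids, fell with CO at 4 h by 0.85 ± 0.26 (adjusted p = 0.0375). Of 8 mRNA-binding partners of initiation factors, none passed against naive kidneys, and the smallest p with CO at 4 h was that of MKNK1, a kinase of eIF4E, at -0.97 ± 0.35 (adjusted p = 0.0765). The same held for 4 further genes of elongation and recycling, of which RACK1, a protein of the small ribosomal subunit, rose from 4 h to 24 h with CO by 0.53 ± 0.13 (adjusted p = 0.00897). Of 6 mitochondrial translation factors, MRRF, which recycles mitochondrial ribosomes, fell with CO at 4 h by 0.86 ± 0.19 (adjusted p = 0.0102), and MTRF1L, a release factor, rose by 0.58 ± 0.18 (adjusted p = 0.0443).

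Of 21 measured genes of the ATF4 pathway, 3 rose in untreated and 10 in CO-treated kidneys at 4 h, and without untreated donor 1 10 rose untreated, beside 7.05% of all probe sets. Their mean level was 6.29 in that kidney, 7.30 to 7.37 in the other 3 untreated kidneys and 6.87 to 7.69 with CO. At 24 h 7 rose and 3 fell untreated, and 4 rose and 2 fell with CO. With CO at 4 h ATF4 itself rose by 2.50 ± 0.42 (adjusted p = 0.00473), SLC7A1, a transporter of basic amino acids, by 3.20 ± 0.54 (adjusted p = 0.00473) and ASNS, which makes asparagine, by 2.89 ± 0.52 (adjusted p = 0.00555). The largest falls at 24 h were in serine synthesis, with PHGDH at -2.56 ± 0.37 (adjusted p = 0.000481) and PSAT1 at -1.97 ± 0.40 (adjusted p = 0.00453) in untreated kidneys. Between the times 2 of the 21 fell untreated, beside 4.57% of all probe sets, and 7 without donor 1, beside 5.72%. With CO 7 fell and 2 rose between the times, beside 7.44% lower and 10.2% higher.

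Of 22 genes of ribosome biogenesis and MYC, 4 rose untreated and 12 with CO at 4 h, and 13 and 11 at 24 h, with 0 lower. Without donor 1, whose mean level over the list was 5.57 against 6.27 to 6.54 in the other untreated 4 h kidneys, 13 rose untreated at 4 h. MYC, a transcription factor that drives ribosome production, rose by 2.64 ± 0.51 untreated at 4 h (adjusted p = 0.0284) and by 2.63 ± 0.51 at 24 h (adjusted p = 0.00315). GNL3, a nucleolar GTPase, rose by 1.65 ± 0.30 and 2.06 ± 0.30 (adjusted p = 0.0257 and 0.000589). Of 14 mTOR pathway genes, 2 rose and 1 fell in untreated kidneys at 24 h, and 0 passed with CO at that time. At 4 h 0 passed untreated. Leaving out donor 1, 1 rose and 1 fell there, beside 7.05% and 6.89% of all probe sets. With CO at 4 h 1 passed, SESN1, an inhibitor of mTOR, which fell by 1.17 ± 0.29 (adjusted p = 0.0183). Between the times 3 rose untreated, beside 5.15% of all probe sets. With CO 6 rose and 1 fell between the times, beside 10.2% higher and 7.44% lower. There LAMTOR2, an anchor of mTOR at the lysosome, rose by 0.89 ± 0.21 (adjusted p = 0.00812). RPS6KA1, a kinase of the ribosomal S6 family, rose in untreated kidneys at 24 h by 1.40 ± 0.37 (adjusted p = 0.0185), and SESN1 fell by 1.04 ± 0.29 (adjusted p = 0.0248).

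Interferon-stimulated genes had 1 of 20 higher in each 4 h group, 5% beside the 0.942% and 6.84% of all probe sets, and 13 untreated and 10 with CO at 24 h, among them GBP1, an interferon-induced GTPase (4.28 ± 0.85 untreated at 24 h, adjusted p = 0.00353). Heat shock genes had 1 of 20 higher untreated and 17 with CO at 4 h, and 0 against naive kidneys at 24 h. Without untreated donor 1, 17 rose untreated at 4 h as well. In untreated donor 1 at 4 h the mean level of the heat shock list was 7.21, against 7.22 to 7.29 in naive kidneys and at least 9.08 in every CO 4 h kidney.

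Over the 18 arrays, the genes most like EIF4A1 among 5553 candidates by Pearson correlation were ARPC5L (0.973), ZPR1 (0.971), TEAD4 (0.971), LRRC59 (0.957) and DKC1 (0.957). Those most like WARS were GBP2 (0.966), GBP1 (0.960), SOCS1 (0.954), SAMHD1 (0.946) and PSMB8 (0.933). These values share the step from naive to transplanted kidneys and the 2 times, and no test was made of them.

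**Figure D5:**
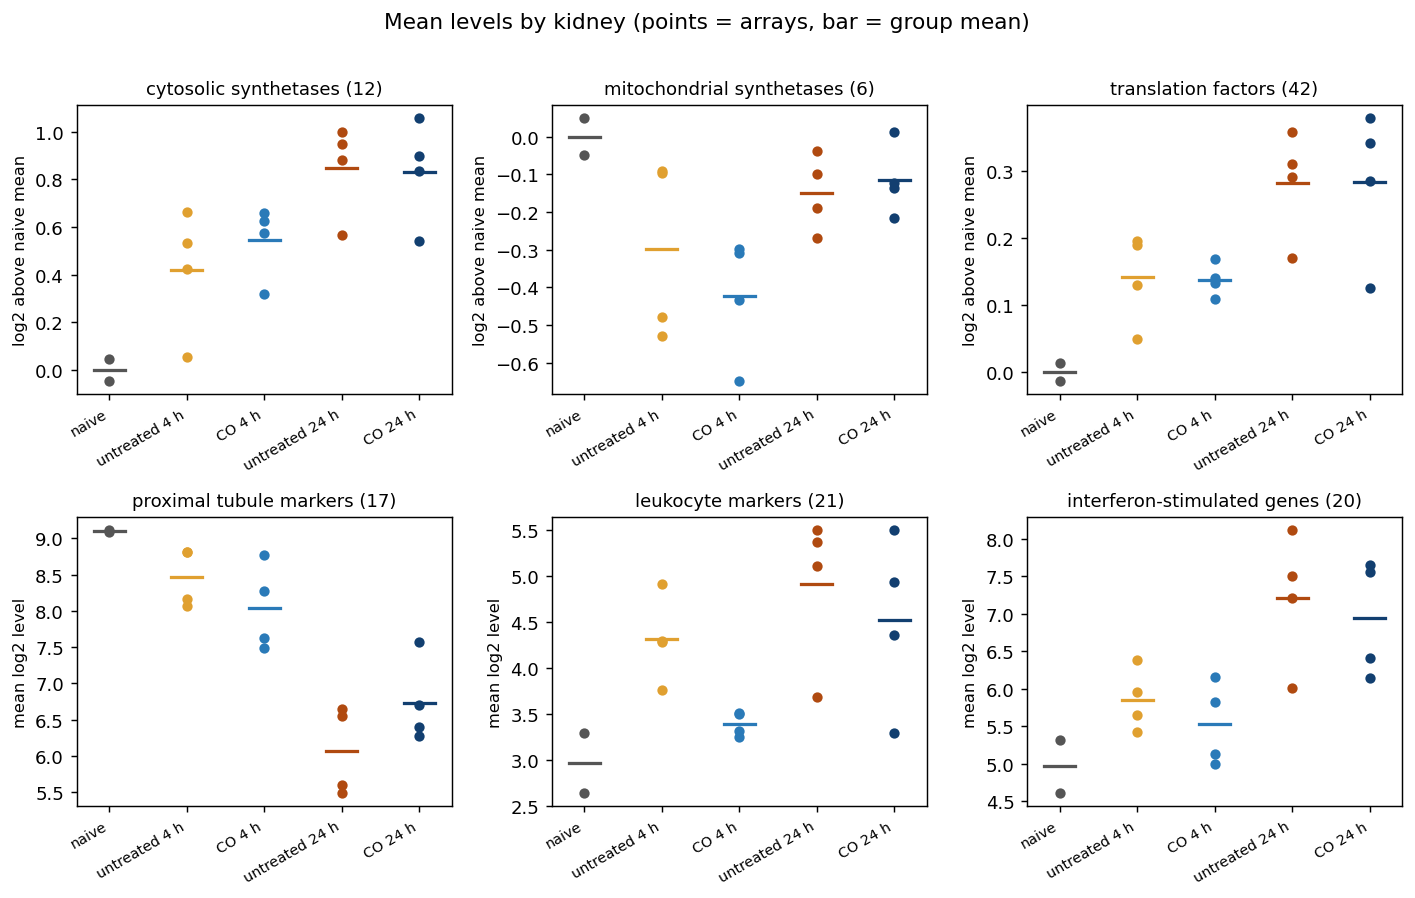
Mean log2 level by kidney of the cytosolic synthetases, mitochondrial synthetases and translation factors (top, minus the naive mean) and of proximal tubule markers, leukocyte markers and interferon-stimulated genes (bottom, as levels), with each point 1 kidney and each bar a group mean. Cytosolic synthetases are highest at 24 h, where proximal tubule markers are lowest (5.48 to 7.57) and leukocyte markers reach 5.50.

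Of all probe sets 7.77% fell untreated and 5.93% with CO at 24 h, and 6.79% and 5.75% rose. Proximal tubule markers fell at 24 h, 16 of 17 untreated and 13 with CO, and their mean level was 5.48 to 6.64 untreated and 6.27 to 7.57 with CO, against 7.49 to 8.82 over the 4 h kidneys. Of 9 loop and distal nephron markers 2 fell in each 4 h group (4 untreated without donor 1) and 5 in each 24 h group. Leukocyte markers had 10 of 21 higher untreated and 4 with CO at 24 h, and 0 in each 4 h group (7 untreated without donor 1). Their mean level was 2.64 and 3.29 in naive kidneys, 3.76 to 4.91 untreated and 3.25 to 3.51 with CO at 4 h, and 3.69 to 5.50 untreated and 3.30 to 5.50 with CO at 24 h, with 1 to 4 of the 21 genes at or below background in a group's mean. Of 13 endothelial markers 2 at most, of 11 stromal markers 2 at most and of 4 erythroid markers 0 passed against naive kidneys in any group, and 1 erythroid marker rose untreated at 4 h without donor 1. The part of these cell types in the changes of WARS, EIF2AK2 and the other members was not tested.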

How the data were processed

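Affymetrix pig arrays measured total RNA from 18 kidneys. Deposited values are log2 levels per probe set that the authors summarised with RMA, per the submitters' processing notes. Version and settings are not given in the sources used here. Array number limits the precision. Labels do not say how kidneys shared litters or recipients, so p-values measure the spread between these kidneys.

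The tests ran, with no filter, on 23999 of 24123 probe sets, those that are not controls (124). The platform annotation gave 10069 of them 1 symbol and 198 several, from which none was named, and 59 of the 60 members' symbols equal RefSeq's by gene identifier. The members, lists and tests were chosen with earlier results of these data known. Groups were fitted with limma 3.58.1 in R 4.3.3 (lmFit, eBayes, all 18 arrays, no block, two-sided, Benjamini-Hochberg adjusted p under 0.05). Background was the 95th percentile of 17 tag control probe sets. Named were, per comparison and class, the 6 largest rises and falls among called members, members fixed by role, and up to 3 called genes of each list or else that of smallest p. Array batches are the dates in array file names.

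Donor numbers pair CO and untreated kidneys, per the labels. Once group means were removed, partner arrays correlated by -0.20 to 0.57, the highest among the CO arrays in 4 of 8 donors. Alternatives were the variance prior, a filter on dim probe sets, renormalisation, groups in the fit, date and donor blocks (statmod 1.5.0), mean probe sets, and leaving out arrays; keeping control probe sets was added after seeing the data. The fit was tested on simulated data. Plots came from matplotlib 3.10.9 (Python 3.11.15).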

Additional observations from a re-analysis of the deposited data

Results flagged for a closer look

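In groups of 4 kidneys, 12 of 232 group values of the 58 members above background held 1 kidney far from the other 3 of its group, against 11.6 that a rate of 1 in 20 gives. The untreated 4 h kidney of donor 1 accounted for 4 of them, all low: AARS at 7.33 (others 8.33 to 8.48), EEF1E1 at 5.51 (others 6.79 to 6.91), EIF2S2 at 7.76 (others 8.38 to 8.46) and SARS at 6.76 (others 8.18 to 8.43). In the same group, donor 3 was low in EIF2D at 4.07 (others 4.67 to 4.75) and high in RARS at 7.57 (others 7.27 to 7.30). In the CO 4 h group, donor 2 was low in EIF2B4 at 6.14 (others 6.35 to 6.37) and in EIF4A2 at 9.94 (others 10.75 to 10.83). In the untreated 24 h group, donor 8 was low in EIF4G1 at 7.79 (others 8.39 to 8.49) and in EIF4G3 at 6.49 (others 7.02 to 7.10), and donor 7 was low in EIF6 at 8.26 (others 8.55 to 8.59). In the CO 24 h group, donor 5 was high in EIF2A at 7.82 (others 7.26 to 7.34).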

How the results depend on the processing

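No called member changed sign under any alternative run, all of which reused arrays that gave the calls. With the array date as a block, 0 factors and 0 synthetases passed in untreated 4 h and in both 24 h groups against naive kidneys and in both comparisons of the times, while 15 members passed with CO at 4 h. Over all 23999 probe sets 105 passed untreated and 2862 with CO at 4 h, and 159 untreated and 0 with CO at 24 h. When arrays of other groups stayed out of the fit, 0 factors and 0 synthetases passed untreated at 4 h, beside 0 of all probe sets. Between the times untreated 3 factors and 3 synthetases passed, beside 1462 of all probe sets. After renormalisation 2 factors passed untreated at 4 h. The donor as a replicate block left 2, 14, 20 and 21 members called against naive kidneys (untreated and CO at 4 h, then at 24 h), 10 and 15 between the times, and 0 for CO against untreated, so that pairing moved no count by over 1.5 times.

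Leaving out 1 kidney at a time, factors called ran from 0 to 9 untreated and 0 to 11 with CO at 4 h, 3 to 17 untreated and 2 to 14 with CO at 24 h, and 2 to 6 untreated and 6 to 12 with CO between the times. Synthetases called ran from 0 to 6 and 0 to 6 at 4 h, 2 to 7 and 2 to 7 at 24 h, and 3 to 5 untreated between the times. The lowest counts against naive kidneys came without naive kidney 1 or 2, and untreated at 4 h also without donor 2, 3 or 4. Calls over all probe sets also fell in those runs. The cause of the other changes was not tested. Changes under about 0.4 were seldom called.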
